A study of Mus musculus with 8 samples.

Results

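CD300 and TREM (triggering receptor expressed on myeloid cells) receptors are surface proteins of myeloid cells, each with a single immunoglobulin-like domain. They were followed here in RNA-Seq of flow-sorted blood monocytes (MCs). The genes Cd300a, Cd300lf, Cd300e, Cd300lb, Cd300ld, Trem1, Trem2, Trem3, Treml4 and Tyrobp, which encodes the adaptor protein DAP12, were taken by symbol, and 10 of 10 were found among 16486 genes. They had been picked with earlier results on these libraries known, so their subset differences are given as a description, and calls between subsets are counted below without being read as a test.

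MCs were sorted from blood of male mice as CD11b+Ly6G- cells with high (Ly6C high) or low (Ly6C low) surface Ly6C. The controls (CT) were wild-type C57/BL6 mice without treatment. In the T1DM model the same strain received streptozotocin (STZ), which destroys beta cells, by daily intraperitoneal doses of 50 mg/kg on 5 days beginning at 8 weeks of age. The T2DM model was the db/db mouse, whose homozygous leptin receptor mutation leads to obesity and hyperglycemia. The study does not state the strain background of the db/db mice. Blood was taken at 20 to 22 weeks of age, and RNA of 5 mice was pooled in each group. Analysed here were 2 CT libraries per subset, but only 1 per subset from either diabetic model. The study describes duplicates for every group, and the other diabetic libraries were not analysed here. Pools are described as sequenced in duplicate, so the spread between CT libraries, and every p-value below, may be technical and need not hold the differences between mice. A NextSeq 500 served for the CT and a HiSeq 4000 for the diabetic libraries, so diabetes and sequencer cannot be told apart. The deposited values are normalized log2 expression values with no read counts, so the depth behind a single value is unknown. The study describes gene counts and length-scaled TPM values, but which of these the deposited values were made from is not given in the sources used here, and the levels of members were therefore compared between libraries, not between genes. Sums over marker lists, and the gene named as the most abundant in a list, use the deposited scale as it is.

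DAP12 sits in the membrane beside receptors that have almost no cytoplasmic part of their own. It carries an immunoreceptor tyrosine-based activation motif (ITAM), which, once phosphorylated by Src-family kinases, recruits the kinase Syk and from there phospholipase C, PI3 kinase and the CARD9 complex. TREM-1, TREM-2, TREM-3, TREML4 and CD300LB signal through DAP12, and CD300LD pairs with the related adaptor FcR gamma. CD300A and CD300LF work in the opposite direction, since their own tails carry inhibitory motifs (ITIMs) that recruit the phosphatases SHP-1 (Ptpn6) and SHIP-1 (Inpp5d). In blood, Ly6C high MCs are the classical MCs that enter inflamed tissue, and Ly6C low MCs are the nonclassical MCs that patrol vessel walls.

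The labels of the subsets were compared with markers first. In a limma fit over the 8 libraries with mouse group as covariate (called the pooled subset fit here, with a gene called at a Benjamini-Hochberg adjusted p under 0.01 and an absolute log2FC above 1), 8 of 8 Ly6C high markers were higher in Ly6C high MCs and 7 were called. Ly6c2, which encodes the sorting antigen, was 8.61 and 8.56 in CT Ly6C high, 8.72 in T1DM Ly6C high and 8.58 in T2DM Ly6C high libraries, against 4.07 and 2.69 in CT Ly6C low, 3.20 in T1DM Ly6C low and 3.53 in T2DM Ly6C low libraries. The Ly6C low markers were less clear. Of 8, Itgax, Fcgr4 and Spn were called lower in Ly6C high MCs, and 5 were not called, with 7 of 8 lower. Cx3cr1, the fractalkine receptor that marks nonclassical MCs, was 8.59 and 8.61 in the CT Ly6C high and 7.76 and 7.78 in the Ly6C low libraries of CT mice, and Nr4a1, the nuclear receptor that nonclassical MCs depend on, was 8.11 and 8.08 against 7.80 and 8.02. Both were thus lower in the CT Ly6C low libraries, which goes against their label. Itgal was as well, at 10.16 and 10.11 in CT Ly6C high and 9.90 and 9.87 in CT Ly6C low MCs. In diabetic mice Nr4a1 was higher in Ly6C low MCs (8.21 against 7.34 for T1DM and 8.28 against 7.03 for T2DM). Cx3cr1 was higher there for T2DM (8.14 against 7.97) but not for T1DM (7.72 against 8.63).

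Markers of other cells also differed between the subsets. The summed level of 8 B cell markers, of which Ighm was the most abundant, was 8.88 and 8.80 for CT, 9.35 for T1DM and 8.25 for T2DM Ly6C high MCs, and 12.35 and 12.37 for CT, 12.52 for T1DM and 12.61 for T2DM Ly6C low MCs (log2 of the summed linear values). All 8 were called lower in Ly6C high MCs (median log2FC -4.40). The summed level of 7 NK cell markers, with Gzma the most abundant, was 6.17 and 6.18 for CT, 6.61 for T1DM and 4.50 for T2DM Ly6C high MCs, and 9.13 and 9.09 for CT, 9.57 for T1DM and 7.02 for T2DM Ly6C low MCs. Both lists were thus higher in each Ly6C low library, and the NK list was lower in T2DM than in the other mice in either subset. Markers of T cells (Lck), basophils and mast cells (Ms4a2) and eosinophils (Il5ra) had 1 gene each called lower in Ly6C high MCs, those of dendritic cells had 2 (Ccr7 and Zbtb46), and those of macrophages, platelets and erythroid cells had 0. Neutrophil markers had the opposite order in their summed level, which was at least 7.31 in each Ly6C high and at most 6.56 in each Ly6C low library. Of these 6 markers 3 were higher and 3 lower in Ly6C high MCs, and only Mmp8 was called (log2FC 5.56, SE 0.21). Of 6 general MC markers, 6 were higher in Ly6C high MCs and 4 were called (Itgam, Csf2ra, Lyz2 and Fcgr1). In bulk RNA, fewer MCs in a sort and less RNA per MC cannot be told apart. The part of these B cell, NK cell, neutrophil and MC markers in any subset difference below was not tested.

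**Figure D1:**
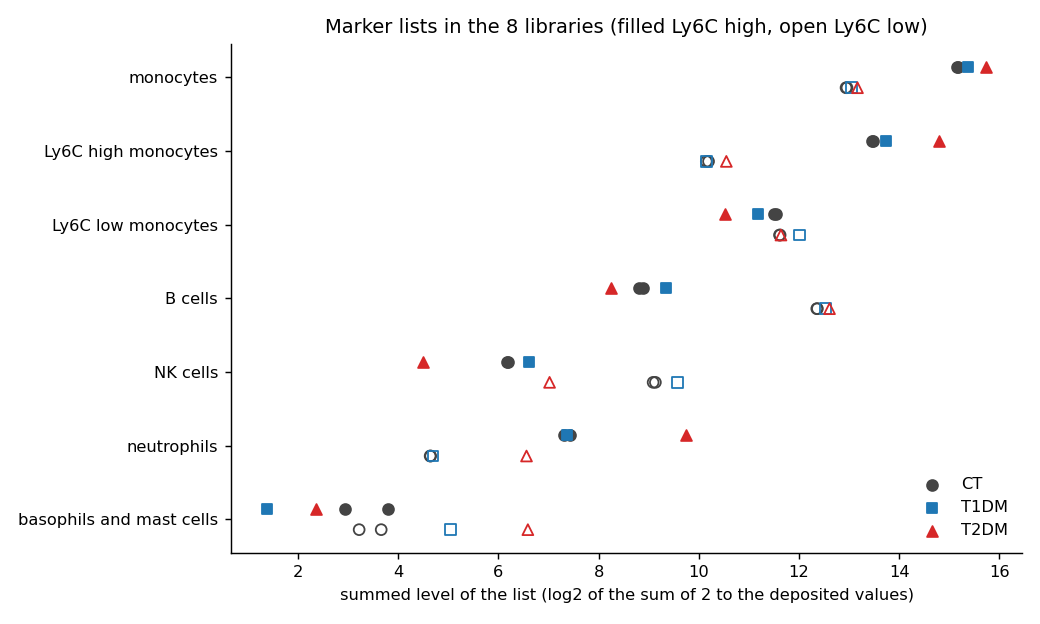
Summed level of each marker list (log2 of the summed linear values, horizontal axis) in the 8 libraries, with filled symbols for Ly6C high and open symbols for Ly6C low MCs and colour and shape for the mouse group. B cell and NK cell lists lie higher in every Ly6C low library, and the neutrophil list is highest in T2DM Ly6C high MCs at 9.75.

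Tyrobp, the adaptor gene, was 9.68 and 9.72 for CT, 9.92 for T1DM and 9.92 for T2DM Ly6C high MCs, and 8.27 and 8.36 for CT, 8.36 for T1DM and 8.38 for T2DM Ly6C low MCs. The groups did not overlap, and the libraries of a subset lay within 0.24 of each other for Ly6C high and 0.11 for Ly6C low MCs. Ly6C high MCs exceeded Ly6C low MCs by 1.39 for CT, 1.56 for T1DM and 1.54 for T2DM mice (2.62-, 2.95- and 2.91-fold), and 1.47 in the pooled subset fit (SE 0.07). Tyrobp lies at chr7:30413760-30417585 (GRCm38, plus strand, GENCODE M21), beside Hcst, which encodes the related adaptor DAP10.

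Trem2, a receptor for lipids and lipoproteins that is best known from microglia and lipid-laden macrophages, had the largest excess in Ly6C high MCs. It was 5.52 and 5.32 for CT, 5.48 for T1DM and 5.66 for T2DM Ly6C high MCs, against 1.25 and 2.82 for CT, 2.26 for T1DM and 2.50 for T2DM Ly6C low MCs. The Ly6C high libraries lay within 0.34 of each other in all 3 mouse groups and far above the Ly6C low libraries. Its difference was 3.38 for CT, 3.21 for T1DM and 3.16 for T2DM mice, or 10.4-, 9.28- and 8.94-fold. In the low libraries the level is less precise, since the 2 CT Ly6C low replicates differed by 1.58, which was more than T1DM or T2DM differed from their mean (0.22 and 0.46).

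Treml4, known for its expression on nonclassical MCs and splenic macrophages, had the opposite order. It was 6.90 and 6.69 for CT, 5.77 for T1DM and 6.14 for T2DM Ly6C high MCs, and 7.50 and 7.48 for CT, 7.91 for T1DM and 7.69 for T2DM Ly6C low MCs. Each Ly6C low library was above each Ly6C high library. The difference was -0.69 for CT, -2.15 for T1DM and -1.56 for T2DM mice.

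Because Trem2 and Treml4 lie in the same gene cluster and had opposite orders, the 250 bases before their starts are shown, together with those of Cd300lf from the CD300 cluster (RefSeq, GRCm38.p6). Capitals mark the core of the motif of PU.1, a transcription factor of the myeloid lineage, searched as GAGGAA on both strands.
Trem2 (chr17:48346151-48346400, plus strand): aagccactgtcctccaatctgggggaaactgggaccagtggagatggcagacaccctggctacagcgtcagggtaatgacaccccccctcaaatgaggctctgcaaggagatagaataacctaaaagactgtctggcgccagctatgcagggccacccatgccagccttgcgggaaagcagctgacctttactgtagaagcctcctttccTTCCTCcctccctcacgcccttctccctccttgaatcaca
Treml4 (chr17:48264045-48264294, plus strand): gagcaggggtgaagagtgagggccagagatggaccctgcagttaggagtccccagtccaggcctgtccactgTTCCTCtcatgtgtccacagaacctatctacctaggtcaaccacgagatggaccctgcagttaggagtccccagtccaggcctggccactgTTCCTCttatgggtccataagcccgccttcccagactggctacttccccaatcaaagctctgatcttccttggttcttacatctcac
Cd300lf (chr11:115133993-115134242, minus strand): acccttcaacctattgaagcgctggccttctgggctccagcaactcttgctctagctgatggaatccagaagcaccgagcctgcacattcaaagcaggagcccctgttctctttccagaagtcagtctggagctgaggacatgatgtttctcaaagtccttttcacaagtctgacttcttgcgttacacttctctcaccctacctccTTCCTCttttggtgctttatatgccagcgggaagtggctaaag

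In Trem2 the match starts 40 bases and in Cd300lf 43 bases before the annotated start. Treml4 has matches at 178 and 87 bases before the start, a distance of 91 bases. A stretch of 40 bases occurs in the Treml4 sequence as a pair of identical copies, also 91 bases apart, and 0.478% of 32851 promoters have an exact repeat that long. Of the 8 members with an entry, 6 had a GAGGAA match (Cd300a, Cd300lf, Cd300ld, Trem1, Trem2 and Treml4), against 23.3% of all promoters of the same length. Further motifs searched on both strands were CACCC of KLF factors (7 of 8 members, 52.0% of all promoters), TTGCNNAA of C/EBP factors (1 of 8, 9.56%), AAAGGTCA of Nr4a receptors (1 of 8, 1.34%), TGANTCA of AP-1 (1 of 8, 6.75%) and TGTGGT of RUNX factors (0 of 8, 14.0%). Matches of different motifs did not overlap in the members. The Nr4a and AP-1 matches were both in Trem2, at 68 and 9 bases before the start, and the C/EBP match was in Cd300a at 214. A match is a stretch of letters and was not examined as a binding site.

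Trem1, which amplifies Toll-like receptor signals in neutrophils and MCs, was 2.81 and 2.26 for CT, 1.34 for T1DM and 4.15 for T2DM Ly6C high MCs, and 3.68 and 4.01 for CT, 3.85 for T1DM and 4.54 for T2DM Ly6C low MCs. Within each mouse group the Ly6C high value was the lower, with differences of -1.31 for CT, -2.51 for T1DM and -0.40 for T2DM mice. Across mouse groups the subsets overlapped, because T2DM Ly6C high MCs lay above both CT Ly6C low libraries. Trem3, a DAP12-coupled activating receptor of mice, was 4.03 and 4.30 for CT, 3.47 for T1DM and 5.07 for T2DM Ly6C high MCs, and 4.19 and 3.88 for CT, 3.93 for T1DM and 4.21 for T2DM Ly6C low MCs. Its subsets overlapped in CT mice, and the sign of the difference changed with the mouse group (0.12 for CT, -0.46 for T1DM and 0.86 for T2DM). Without CT Ly6C high replicate 2 or CT Ly6C low replicate 2 the CT difference was near 0 (-0.01 and -0.03).

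The widest range of any member was that of Cd300e, a receptor that marks human MCs and activates them. Cd300e was 3.29 and 3.54 for CT, 2.46 for T1DM and 1.64 for T2DM Ly6C high MCs, against 7.32 and 7.39 for CT, 7.87 for T1DM and 7.57 for T2DM Ly6C low MCs. The differences of -3.94 for CT, -5.40 for T1DM and -5.92 for T2DM mice stand for 15.4-, 42.3- and 60.6-fold lower levels in Ly6C high MCs. The pooled subset fit gave a log2FC of -4.80 (SE 0.32). Cd300ld, which activates through FcR gamma, was 6.74 and 6.60 for CT, 5.91 for T1DM and 6.88 for T2DM Ly6C high MCs, and 7.96 and 7.93 for CT, 8.16 for T1DM and 8.14 for T2DM Ly6C low MCs. It was likewise higher in each Ly6C low library, by 1.27 in CT (log2FC -1.27), and had log2 differences of -2.25 in T1DM and -1.26 in T2DM mice.

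Among the activating CD300 receptors, Cd300lb had the opposite order and varied least with the mouse group. It was 7.21 and 7.06 for CT, 7.14 for T1DM and 7.15 for T2DM Ly6C high MCs, and 5.82 and 6.00 for CT, 5.91 for T1DM and 5.99 for T2DM Ly6C low MCs. In both subsets the diabetic libraries lay between the 2 CT replicates. Its difference was 1.22 for CT, 1.23 for T1DM and 1.17 for T2DM mice.

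Neither inhibitory receptor differed between the subsets by 2-fold in CT mice. Cd300a, which binds phosphatidylserine and phosphatidylethanolamine on dying cells, was 9.22 and 9.23 for CT, 9.03 for T1DM and 9.04 for T2DM Ly6C high MCs, and 8.47 and 8.43 for CT, 8.42 for T1DM and 8.97 for T2DM Ly6C low MCs. All Ly6C high libraries were above all Ly6C low libraries, but in T2DM mice the difference was only 0.06, against 0.78 in CT and 0.61 in T1DM mice. Under quantile normalization it was -0.33 in T2DM mice. Cd300lf was 5.36 and 5.54 for CT, 5.39 for T1DM and 6.31 for T2DM Ly6C high MCs, and 5.09 and 5.41 for CT, 4.60 for T1DM and 5.19 for T2DM Ly6C low MCs. The CT subsets overlapped, and the difference was 0.20 for CT, 0.80 for T1DM and 1.12 for T2DM mice.

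**Figure D2:**
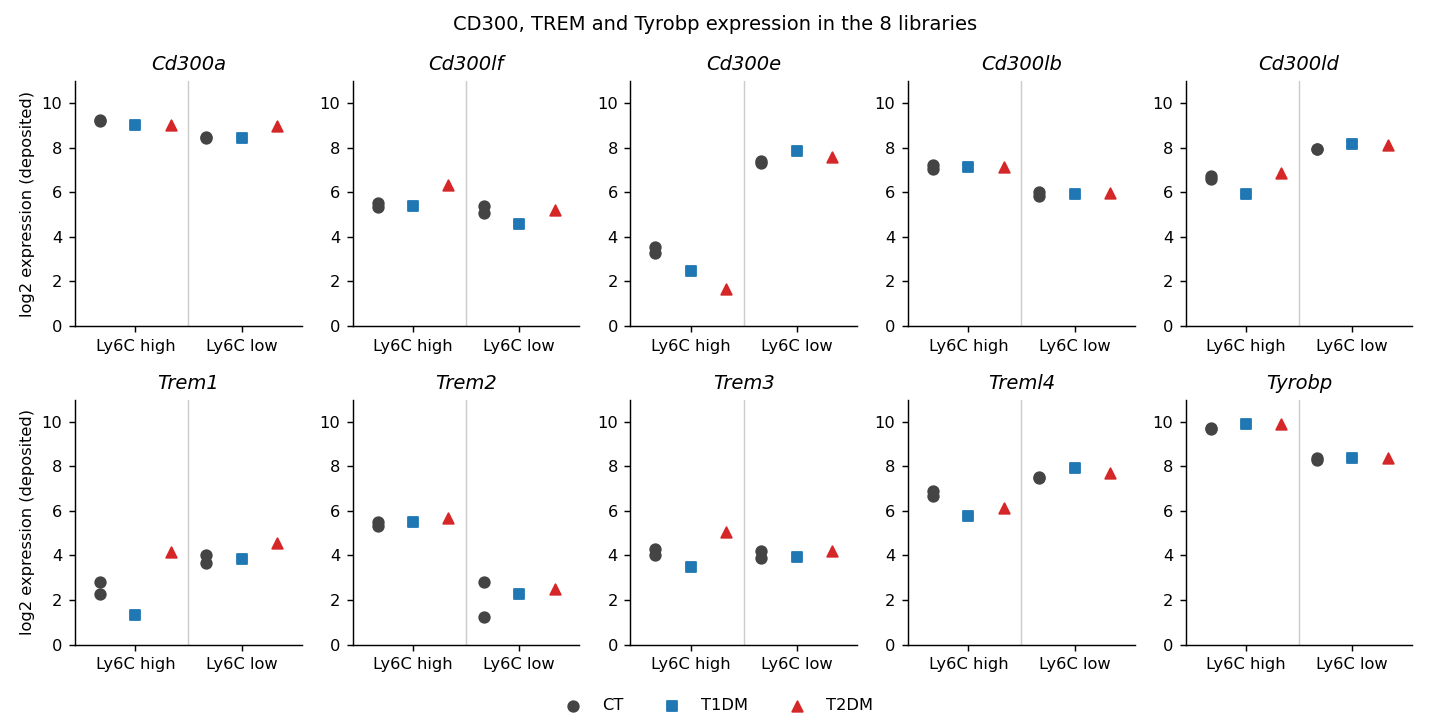
Deposited log2 expression (vertical axis) of the 10 genes in each library, with CT libraries as grey circles, T1DM as blue squares and T2DM as red triangles, and Ly6C high to the left of Ly6C low MCs. Cd300e and Trem2 separate the subsets most, in opposite directions, and Trem1 and Trem3 are spread among the Ly6C high libraries.

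Over the 8 libraries, 4 members (Cd300a, Cd300lb, Trem2 and Tyrobp) were higher in all Ly6C high than in all Ly6C low libraries, and 3 (Cd300e, Cd300ld and Treml4) were lower. The first order held for 16.4% and the second for 16.3% of all genes. The pooled subset fit called 6 members, 3 higher and 3 lower, against 12.1% of all genes (5.37% higher and 6.76% lower), and the fit of the CT libraries alone called 3, 1 higher and 2 lower, against 3.52% (2.1% and 1.43%). The pooled call of Treml4 was lost without a trend or when any single diabetic library was left out, and Trem1 was called without T2DM mice. In the CT fit 0 members and 0 genes were called without a trend, with a replicate block or when any single CT replicate was left out. Members past 2-fold between subsets numbered 6 of 10 for CT, 7 for T1DM and 7 for T2DM, where 25%, 27.9% and 29.1% of all genes were past 2-fold. Nothing is read from these counts, because the subset difference was known when the members were picked.

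Set against MC genes of the same library, some of these orders changed. The mean of Csf1r, Itgam and Cd68 was at least 9.85 in each Ly6C high library and at most 9.26 in each Ly6C low library. Relative to this mean, a scale chosen after the values were seen, Cd300a was lower in Ly6C high MCs in all 3 mouse groups (-0.17 for CT, -0.10 for T1DM and -0.83 for T2DM). Tyrobp was higher by 0.44 for CT, 0.85 for T1DM and 0.64 for T2DM, Cd300lb by 0.27, 0.53 and 0.27, and Trem2 by 2.44, 2.51 and 2.26. Cd300e was at -4.89, -6.11 and -6.82, Cd300ld at -2.22, -2.96 and -2.16, and Treml4 at -1.64, -2.85 and -2.45. Cd300a thus changed its direction on this scale, and the other members that did not overlap between subsets kept theirs. Among the overlapping members, Cd300lf was at -0.74 for CT, 0.09 for T1DM and 0.22 for T2DM, and so turned in CT mice. Trem3 was at -0.82, -1.17 and -0.04, and turned in CT and T2DM mice. Trem1 kept its direction (-2.25, -3.22 and -1.29).

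**Figure D3:**
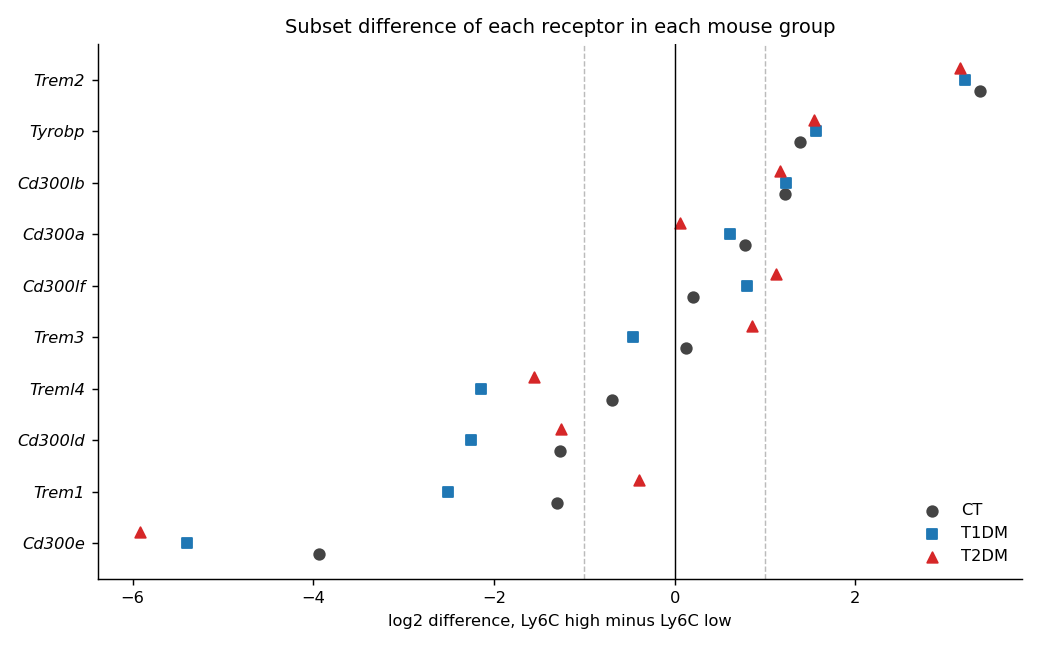
Log2 difference of Ly6C high minus Ly6C low MCs (horizontal axis) of each member in CT (grey circles), T1DM (blue squares) and T2DM mice (red triangles), sorted by the CT value, with dashed lines at 2-fold. Cd300e runs from -3.94 to -5.92, and Trem2, Tyrobp and Cd300lb have nearly the same value in the 3 mouse groups.

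The receptors lie in 2 clusters. The CD300 cluster spans 244 kb (chr11:114890041-115133992, GRCm38) with 11 genes in GENCODE M21, of which 9 were measured. The TREM cluster spans 242 kb (chr17:48125605-48367176) with 8 genes, of which 8 were measured. Neighbours differed in direction at some places and shared it at others. Trem1, Trem3 and Treml4 follow each other with CT differences of -1.31, 0.12 and -0.69, and Trem2, further along, had 3.38. In the CD300 cluster Cd300a and Cd300lb had 0.78 and 1.22, and the adjacent Cd300ld3 and Cd300e had -3.64 and -3.94.

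**Figure D4:**
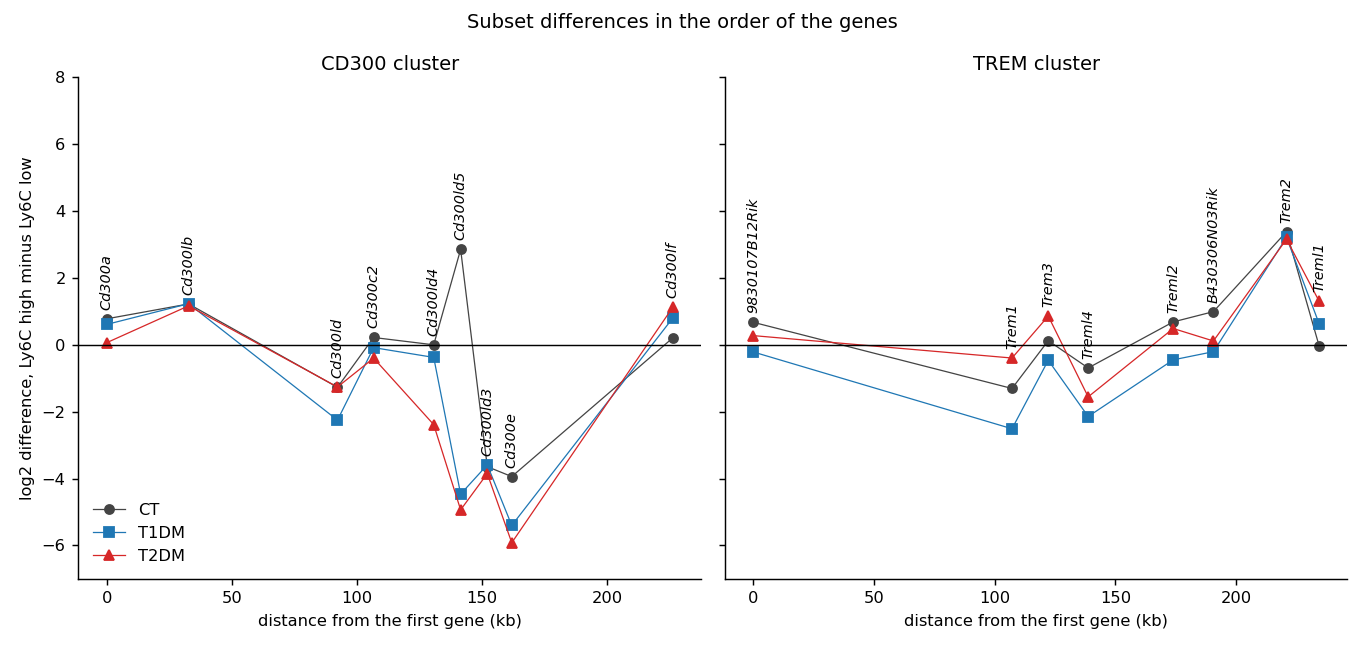
Log2 difference of Ly6C high minus Ly6C low MCs (vertical axis) of the 9 measured genes of the CD300 cluster and the 8 of the TREM cluster, by distance of each gene from the first gene of the cluster in kb (horizontal axis), in CT, T1DM and T2DM mice. Lines join neighbours only to guide the eye, and Cd300ld4, Cd300ld5 and Cd300ld3 share at least 84.1% of their 31-base sequences with other genes.

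Of the 9 other genes of both families that were measured, 1 was called higher and 1 lower in Ly6C high MCs by the pooled subset fit, which called 5.37% of all genes higher and 6.76% lower. Cd300lg, an endothelial family member outside the cluster, was 6.18 and 6.21 for CT, 6.33 for T1DM and 6.14 for T2DM Ly6C high MCs, and 3.34 and 2.92 for CT, 3.65 for T1DM and 4.45 for T2DM Ly6C low MCs (log2FC 2.62, SE 0.24, limma adjusted p = 6.27e-05). Cd300ld3 was 3.17 and 3.29 for CT, 3.26 for T1DM and 2.76 for T2DM Ly6C high MCs, and 6.83 and 6.92 for CT, 6.85 for T1DM and 6.61 for T2DM Ly6C low MCs (log2FC -3.68, SE 0.12, limma adjusted p = 6.6e-07). Neither gene overlapped between subsets. The reads of Cd300ld3 are uncertain, since 84.1% of its 31-base sequences also occur in Cd300ld5, and Cd300ld4 and Cd300ld5 share 96.2% and 100% with other genes. Cd300c2 (log2FC -0.01), Treml1 (0.47), Treml2 (0.35), B430306N03Rik (Treml6, 0.47), 9830107B12Rik (Trem5, 0.35), Cd300ld4 (-0.69) and Cd300ld5 (-0.92) were not called. The members themselves are better resolved, with at most 8.20% of 31-base sequences in other genes (Cd300a), 6.56% in Cd300ld, 4.73% in Cd300lf and 0% in Cd300e, Cd300lb, Trem3, Treml4 and Tyrobp.

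The other adaptors did not all have the order of Tyrobp. Fcer1g, which encodes FcR gamma, was 9.94 and 9.78 for CT, 9.95 for T1DM and 10.05 for T2DM Ly6C high MCs, and 8.77 and 8.98 for CT, 9.04 for T1DM and 8.96 for T2DM Ly6C low MCs. Its log2FC of 0.99 (SE 0.08, limma adjusted p = 3.58e-05) was just under 2-fold, and it was called without CT Ly6C high replicate 2 (1.02), without CT Ly6C low replicate 2 (1.04) and without T1DM mice or either T1DM library (1.02). Hcst overlapped between the subsets (log2FC -0.18, SE 0.25). Cd247, the T and NK cell adaptor CD3 zeta, was called lower in Ly6C high MCs (log2FC -1.36, SE 0.23, limma adjusted p = 0.00204), and it ran from 2.95 to 3.47 in Ly6C high and from 4.30 to 4.94 in Ly6C low MCs. Between subsets Cd247 thus had the order of the NK cell markers given above, and its call was lost without CT Ly6C low replicate 2 (log2FC -1.31, limma adjusted p = 0.0106). Between mouse groups Cd247 followed them in only some libraries. T1DM Ly6C high MCs (3.47) were above both CT Ly6C high libraries (2.95 and 2.99), as the NK list was. T2DM Ly6C low MCs (4.30) were below both CT Ly6C low libraries (4.94 and 4.70), also as the NK list was. Unlike the NK list, T2DM Ly6C high MCs (3.41) were above both CT Ly6C high libraries. T1DM Ly6C low MCs (4.33) were below both CT Ly6C low libraries, again unlike the NK list.

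Downstream of the ITAM, 1 of 23 kinases and signalling proteins was called higher in Ly6C high MCs and 2 were called lower (median log2FC 0.28, against -0.08 over all genes). These 3 calls are near the share of 12.1% called over all genes. Card9, which links Syk to NF-kappaB, was called higher (log2FC 1.14, SE 0.18, limma adjusted p = 0.00123), a call that was lost without T1DM mice (log2FC 1.06, limma adjusted p = 0.01). Blnk, the B cell linker, had 2.76 and 1.85 in CT Ly6C high and 6.82 and 6.95 in CT Ly6C low MCs (log2FC -4.68, SE 0.23, limma adjusted p = 2.47e-06). Pik3r1, a regulatory subunit of PI3 kinase, was called lower as well (log2FC -1.06, SE 0.10), and was under 2-fold without CT Ly6C low replicate 1 (-0.98). Syk itself was not called (log2FC -0.47, SE 0.08), with 9.32 and 9.16 in CT Ly6C high and 9.64 and 9.67 in CT Ly6C low MCs.

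Of 8 phosphatases and ITIM signalling proteins, 0 were called (median log2FC 0.16, with 3 at an unadjusted p under 0.05, where 7117 of 16486 genes were). Ptpn6 was 8.88 and 8.96 for CT, 8.52 for T1DM and 8.44 for T2DM Ly6C high MCs, and 8.02 and 8.00 for CT, 7.98 for T1DM and 7.98 for T2DM Ly6C low MCs, without overlap (log2FC 0.70, SE 0.10). Inpp5d had a log2FC of 0.25 (SE 0.13). Of 14 genes listed as other ITIM receptors of myeloid cells, 7 were called higher in Ly6C high MCs and 0 lower (median log2FC 1.12), where 5.37% and 6.76% of all genes were called. Whether each mouse protein of this list, Cd33 included, carries an ITIM was not examined. The largest log2FC were those of Cd33, a sialic acid receptor (log2FC 3.16, SE 0.33), Clec4a2, a lectin receptor (2.84, SE 0.26), Lilrb4a (1.92, SE 0.11) and the sialic acid receptor Siglece (1.87, SE 0.20). Under quantile normalization 2 others, Lair1 and Pecam1, were called lower (log2FC -1.19 and -1.47).

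Of 13 other receptors that pair with DAP12, 3 were called higher in Ly6C high MCs, 3 were called lower and 7 were not called (median log2FC -0.56), beside 5.37% of all genes higher and 6.76% lower. Those called higher were the myeloid receptors Clec5a (log2FC 3.88, SE 0.27), Sirpb1c (1.52, SE 0.08) and Sirpb1b (1.04, SE 0.14). The NK cell receptors Klrc2 (-3.33, SE 0.34), Klra4 (-2.56, SE 0.48) and Klrk1 (-2.22, SE 0.22) were those called lower. These last 3 had the order of the NK cell markers. The call of Klra4 was lost when any single CT or T1DM library was left out, and Sirpb1b was under 2-fold without CT Ly6C low replicate 1 (0.93) and just under it without T2DM mice (0.995).

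Of 7 ligands and sheddases of TREM receptors, 1 was called higher and 1 lower, against 5.37% and 6.76% of all genes. Lgals3, the galectin-3 gene, was called higher in Ly6C high MCs (log2FC 2.46, SE 0.08) and Pglyrp1, a peptidoglycan-binding ligand of TREM-1, was called lower (-1.64, SE 0.16). Of 20 genes of the lipid and phagocyte programme known from TREM2-positive macrophages, 7 were called higher, 4 lower and 9 not called (median log2FC 0.60), where the fit called 5.37% of all genes higher and 6.76% lower. Lgals3 and Clec7a, a receptor for fungal glucans (2.45, SE 0.16), were higher. Axl and Gpnmb were among the 7, but their calls were lost without most single libraries. The fatty acid carrier Fabp4 (-3.20, SE 0.24) and the integrin Itgax (-2.53, SE 0.26) were lower, Itgax being a Ly6C low marker as well.

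The genes most like each member were sought by the root mean square difference of log2 values over the 8 libraries, after centring each gene on its mean, among genes with a mean of at least 5. These likenesses are descriptions over 8 libraries of 2 subsets. Nearest to Cd300e were Spib (0.34), Cd79a (0.44) and Pou2af1 (0.49), which are B cell genes. Cd79a was 3.90 and 3.83 for CT, 4.17 for T1DM and 2.68 for T2DM Ly6C high MCs, and 8.56 and 8.59 for CT, 8.66 for T1DM and 9.08 for T2DM Ly6C low MCs. Nearest to Tyrobp were Rhob (0.07), Wdfy3 (0.09) and Plxnb2 (0.10), to Cd300lb Tmpo (0.06), Itpripl2 (0.06) and Sema4a (0.07), and to Cd300a Lyl1, Rbm47 and Syngr2 (each 0.08). Cd300ld and Treml4 had Nop58 in common among their nearest genes (0.14 and 0.22), followed by L1cam (0.17) and Iqsec1 (0.18) for Cd300ld. Treml4 was nearest to Pcmtd1 (0.18). Cd300lf was nearest to Emc7 and Ncf4 (each 0.16) and Tmem189 (0.17). Trem1, Trem2 and Trem3 had means under 5 and were not compared.

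Whether diabetes went with other receptor levels was examined next. In fits over both subsets, 0 of 10 members were called for T1DM against CT, T2DM against CT or T2DM against T1DM, where limma called 0%, 0.297% and 0.588% of all genes. At an unadjusted p under 0.05 there were 0, 1 and 3 members, and 551, 1474 and 2364 of 16486 genes. With both diabetic models set against CT within a subset, limma called 0 members and 0% of all genes in Ly6C high MCs (2 members at an unadjusted p under 0.05) and 0 members and 0% in Ly6C low MCs (0 members). These fits rest on 2 CT and 2 diabetic libraries in each subset, and a p that misses the threshold does not show that levels were alike.

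Trem1 differed most between the diabetic models. T2DM was above T1DM by 2.80 in Ly6C high MCs (6.99-fold) and by 0.69 in Ly6C low MCs, and the fit over both subsets gave a log2FC of 1.75 (SE 0.47, unadjusted p = 0.00486, limma adjusted p = 0.122). Against the CT mean, T1DM Ly6C high MCs were at -1.19 and T2DM Ly6C high MCs at 1.61, and the CT replicates differed by 0.56. Trem3 had the same order, with 1.59 for Ly6C high and 0.27 for Ly6C low MCs (log2FC 0.93, SE 0.32, unadjusted p = 0.0174, limma adjusted p = 0.223). Cd300lf followed with 0.92 and 0.60 (log2FC 0.76, SE 0.26, unadjusted p = 0.0168, limma adjusted p = 0.22). None of the 3 passed the adjusted threshold. Both diabetic models were run on the same sequencer, so this comparison is not tied to the sequencer. The strain background of the db/db mice is not stated, so model and background cannot be told apart here.

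Of the 6 neutrophil markers measured, of 10 listed, 3 were higher and 3 lower in T2DM than in T1DM Ly6C high MCs (median 0.01), and 6 of 6 were higher in T2DM than in T1DM Ly6C low MCs (median 2.55). Their summed level was 7.43 and 7.31 for CT, 7.37 for T1DM and 9.75 for T2DM Ly6C high MCs, and 4.64 and 4.65 for CT, 4.70 for T1DM and 6.56 for T2DM Ly6C low MCs. The most abundant gene in the sum was Mmp8, a collagenase also made by MCs, at 7.28 and 7.15 for CT, 6.99 for T1DM and 9.70 for T2DM Ly6C high MCs. The markers thus did not share an order among Ly6C high libraries. Mmp8 was lowest with T1DM and highest with T2DM among them, as Trem1 and Trem3 were. The granule gene Mpo was also highest with T2DM (0.17 and 1.40 for CT, 0.74 for T1DM and 3.83 for T2DM Ly6C high MCs). Retnlg (1.98 and 1.46, 3.87 and -1.55 in the same order) and the lactoferrin gene Ltf (-2.04 and -0.55, 2.71 and 0.42) were highest with T1DM, where Trem1 and Trem3 were lowest. Ngp (1.53 and 1.72, 2.89 and 3.07) was above CT in both models, and Cxcr2, the neutrophil chemokine receptor, was 3.07 and 2.81, 2.95 and 2.79. Cells with Ly6G on their surface had been gated out, and Ly6g, Elane, Camp and Stfa2l1 were not analysed here. Ly6C high markers were also higher in T2DM than in T1DM, for 7 of 8 genes in Ly6C high (median 0.67) and 8 of 8 in Ly6C low MCs (median 0.74). Among them Chil3, a chitinase-like gene, had the order of Trem1, with 10.37 and 10.39 for CT, 9.32 for T1DM and 11.67 for T2DM Ly6C high MCs. The part of either list in the levels of Trem1, Trem3 and Cd300lf was not tested.

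Cd300e and Treml4 were lower in both diabetic Ly6C high libraries than in both CT Ly6C high libraries. Cd300e lay 0.95 below the CT mean in T1DM and 1.77 below it in T2DM (differences of -0.95 and -1.77), with a CT gap of 0.25, and the fit of both diabetic models gave -1.36 (SE 0.28, unadjusted p = 0.0015, limma adjusted p = 0.626). Treml4 had differences of -1.03 in T1DM and -0.66 in T2DM with a CT gap of 0.21 (log2FC -0.84, SE 0.17, unadjusted p = 0.00119, limma adjusted p = 0.579). In Ly6C low MCs both genes were above both CT libraries in either model, by 0.51 and 0.21 for Cd300e and by 0.43 and 0.20 for Treml4 over the CT mean. The subset difference was therefore wider in diabetic than in CT mice, by -1.72 for Cd300e (SE 0.40, unadjusted p = 0.00287, limma adjusted p = 0.59) and by -1.16 for Treml4 (SE 0.24, unadjusted p = 0.00142, limma adjusted p = 0.507). Neither passed after adjustment over all genes, where limma called 0% (1084 genes at an unadjusted p under 0.05). The 8 Ly6C low markers had a like order, with 7 lower than CT in T1DM Ly6C high (median -0.41) and 7 lower in T2DM Ly6C high MCs (median -1.09), and 7 and 5 higher in the Ly6C low libraries (medians 0.32 and 0.18). Nr4a1, for example, was at 7.34 with T1DM and 7.03 with T2DM against 8.11 and 8.08 in CT Ly6C high MCs. B cell markers were lower than CT for 8 of 8 genes in T2DM Ly6C high MCs (median -0.63) and higher for 8 of 8 in T2DM Ly6C low MCs (median 0.38), as Cd300e was, but with T1DM 8 of 8 were higher in Ly6C high MCs (median 0.34). Basophil and mast cell markers moved with Cd300e and Treml4 in both models. They were lower than CT for 5 of 6 genes in T1DM Ly6C high (median -1.84) and 5 of 6 in T2DM Ly6C high MCs (median -1.09), and higher for 6 of 6 in T1DM Ly6C low (median 2.03) and 6 of 6 in T2DM Ly6C low MCs (median 3.20). Of these markers, Prss34 was at a shared lowest value in both CT (-1.89) and both diabetic Ly6C high libraries (-2.59). Its count as lower is only the gap between these lowest values. Mcpt8 was at such values in CT Ly6C high replicate 1 (-1.99) and both diabetic Ly6C high libraries (-2.56). Cpa3 in T1DM (-2.41) and T2DM Ly6C high MCs (-1.91) lay between its CT replicates (1.79 and -2.49). Gata2 did so in T2DM (1.53, with CT at 1.21 and 3.33) but not in T1DM Ly6C high MCs (0.03). Fcer1a was below both CT Ly6C high libraries (0.04 and -0.20) in T1DM (-2.05) and T2DM (-1.52). The summed level of the basophil and mast cell markers, with Gata2 the most abundant gene, was 2.94 and 3.79 for CT, 1.37 for T1DM and 2.36 for T2DM Ly6C high MCs. In Ly6C low MCs it was 3.22 and 3.66 for CT, 5.04 for T1DM and 6.59 for T2DM. Dendritic cell and eosinophil markers had this order with T2DM, at 6 of 7 and 3 of 3 lower in Ly6C high MCs (medians -1.66 and -0.64) and 4 of 7 and 3 of 3 higher in Ly6C low MCs (medians 0.64 and 1.16). With T1DM, 3 of 7 and 1 of 3 were lower in Ly6C high MCs. Macrophage markers had this order with T1DM. In Ly6C high MCs 5 of 8 were lower (median -0.176), and in Ly6C low MCs 7 of 8 were higher (median 0.991). With T2DM, 4 of 8 were lower and 3 of 8 higher, respectively. T cell markers had it with T2DM, at 5 of 8 lower (median -0.783) and 5 of 8 higher (median 0.23). With T1DM, 5 of 8 T cell markers were lower and 4 of 8 higher. The part of these lists in the differences of Cd300e and Treml4 was not tested.

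**Figure D5:**
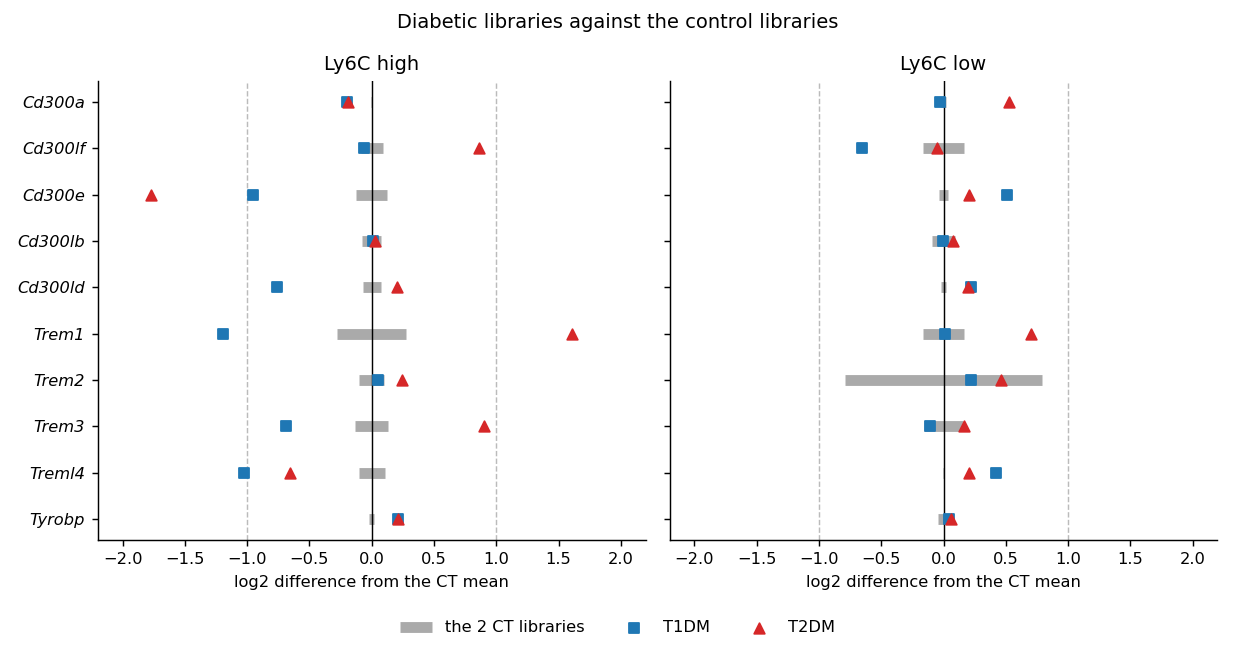
Log2 difference of the T1DM (blue squares) and T2DM library (red triangles) from the mean of the 2 CT libraries (horizontal axis) for each member in Ly6C high and Ly6C low MCs, with grey bars spanning the 2 CT libraries and dashed lines at 2-fold. In Ly6C high MCs Trem1 lies at -1.19 in T1DM and 1.61 in T2DM, while Cd300lb and Tyrobp stay within 0.22 of the CT mean in both subsets.

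Past 2-fold from the CT mean were 2 members in T1DM Ly6C high MCs (Trem1 and Treml4, both lower, against 10.1% of all genes), 2 in T2DM Ly6C high MCs (Trem1 higher and Cd300e lower, against 13.8%), and 0 in T1DM and T2DM Ly6C low MCs (8.81% and 10.8%). Between the diabetic models, 2 members (Trem1 and Trem3) were past 2-fold in Ly6C high MCs, against 19.3% of all genes, and 0 in Ly6C low MCs, against 15.3%. Beyond the CT pair by more than its own gap were 7 members in T1DM Ly6C high and 7 in T2DM Ly6C high MCs, where 39.7% and 45.3% of all genes were, and 4 and 5 members in T1DM and T2DM Ly6C low MCs, where 39.1% and 41.5% were. In T1DM Ly6C high MCs 1 member lay above both CT libraries and 6 below, against 36.3% and 33.5% of all genes, and in T2DM Ly6C high MCs 6 lay above and 3 below, against 38.4% and 35.5%. In T1DM Ly6C low MCs 3 lay above and 2 below, against 35.1% and 34.9%, and in T2DM Ly6C low MCs 7 lay above and 0 below, against 34.5% and 37%. The 4 comparisons with CT use the same CT libraries in each subset.

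Between the diabetic models, 1 of 13 DAP12-paired receptors, 1 of 7 ligands and sheddases and 1 of 20 genes of the TREM2 programme were called, against 0.588% of all genes, and 0 in the other pathway lists. Klrc2 (log2FC -3.50, SE 0.48, limma adjusted p = 0.00952), Clu, a TREM2 ligand (-1.72, SE 0.22, limma adjusted p = 0.00749), and the tetraspanin Cd9 (-1.12, SE 0.14, limma adjusted p = 0.00663) were lower in T2DM than in T1DM MCs over both subsets. Apoe, the apolipoprotein that TREM2 binds, was 8.81 and 8.73 for CT, 9.29 for T1DM and 10.21 for T2DM Ly6C high MCs, and 7.82 and 7.86 for CT, 8.71 for T1DM and 10.04 for T2DM Ly6C low MCs. It was called higher in T2DM than in CT MCs (log2FC 1.82, SE 0.15, limma adjusted p = 0.0013), with Trem2 itself at 0.35 (SE 0.38, limma adjusted p = 0.916) in the same fit. That fit also called the Ly6C high markers Chil3 (1.76) and F13a1 (1.08) higher. It called the NK cell markers Gzma (-1.75), Nkg7 (-2.07) and Ncr1 (-1.69) lower. Neutrophil markers were above CT in T2DM for 4 of 6 genes in Ly6C high and 6 of 6 in Ly6C low MCs. The part of these lists in the level of Apoe was not tested. The Apoe call held when any single library was left out, but not without a trend (limma adjusted p = 0.0428). The calls of Klrc2, Clu and Cd9 were lost when any single diabetic library was left out, with limma adjusted p from 0.0134 to 0.119 for Klrc2, from 0.0303 to 0.113 for Clu and from 0.0138 to 0.0826 for Cd9. Klrc2 had the order of the NK cell markers between models, for which 7 of 7 were lower and 5 called. Platelet markers were lower in T2DM than in T1DM MCs for 6 of 6 genes, with Ppbp called. Erythroid markers were also lower, for 6 of 6 genes in Ly6C high (median -1.175) and in Ly6C low MCs (median -1.013). The part of both lists in the levels of Clu and Cd9 was not tested.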

How the data were processed

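RNA of 5 pooled mice per group and subset was sequenced. Per the labels, the build was mm10, and the tools were kallisto 0.45, R 3.6.1 and, for summing transcripts to genes, tximport 1.12.3. The authors deposited normalized log2 values of 16486 genes in 8 libraries. The values hold no counts, and their linear sums ran from 838696 to 1090019 per library.

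Values were used as deposited in limma 3.58.1 (R 4.3.3; lmFit, eBayes with a mean trend), with Benjamini-Hochberg adjustment over all genes and calls at an adjusted p under 0.01 and an absolute log2FC above 1. Tests were two-sided. The fits within a subset compared 2 diabetic with 2 CT libraries, and single diabetic libraries were also set against the CT mean without a test. Values were handled with Python 3.11.15, pandas 2.3.3 and numpy 2.4.6. Scripts were tested on simulated data.

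The members and gene lists were chosen with earlier results of these data known. Named were all members, the adaptors, the other family genes, Ptpn6, Syk and Inpp5d, up to 4 genes of the largest log2FC called per list between subsets, genes called in a test of diabetes, and the 3 nearest patterns per member. Of these patterns, 1 is not reported here. Other names were chosen after their values were seen. Alternatives were a filter at a mean log2 value of 1, log2(linear value + 1), quantile normalization, no trend, an adjusted p under 0.05, a replicate block, each library or diabetic model left out, and, added after seeing the data, the scale of MC genes. Positions are from GENCODE M21 and promoters from RefSeq, which matched 8 of 10 members. Shared sequence was counted in 31-base stretches of annotated transcripts.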

Additional observations from a re-analysis of the deposited data

Results flagged for a closer look

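Trem1 and Trem3 moved in opposite directions from CT in the diabetic models. In Ly6C high MCs T1DM was below and T2DM above both CT libraries, and T2DM exceeded T1DM by 2.80 for Trem1 and 1.59 for Trem3 on the log2 scale. With 1 library per model in the subset, this difference was not tested within Ly6C high MCs.

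For Cd300e and Treml4 the difference between Ly6C high and Ly6C low MCs was not the same in diabetic and CT mice. The test of this difference gave -1.72 for Cd300e (unadjusted p = 0.00287, limma adjusted p = 0.59) and -1.16 for Treml4 (unadjusted p = 0.00142, limma adjusted p = 0.507), so neither passed after adjustment over all genes.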

How the results depend on the processing

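Of 146 alternative values of the main comparisons, 114 stayed close to the reported one and 32 moved. The pooled subset fit called 2001 genes, and from 1507 to 1737 without a library and 1823 with a replicate block. The CT subset fit called 581 genes, 1089 with the filter on low values, 1936 at an adjusted p under 0.05, and 0 without a trend, with a replicate block or when any single replicate was left out, so that Cd300e, Cd300ld and Tyrobp were not called there. Deviations of CT libraries with the same replicate number were not correlated between subsets across genes (0.00892). Since the spread between CT libraries may be technical, this cannot show whether replicate numbers pair them. The block changed no other call of a member. For T2DM against T1DM, 97 genes became 26 without a trend, 253 at an adjusted p under 0.05 and from 24 to 146 without a library. For T2DM against CT, 49 became 9, 105 and from 16 to 85. At an adjusted p under 0.05, T1DM against CT had 2 calls and the test of the subset difference 3, both from 0.

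Members past 2-fold from CT in T1DM Ly6C high MCs fell from 2 to 1 with log2(linear value + 1), with quantile normalization and without CT Ly6C high replicate 1. In T1DM and T2DM Ly6C low MCs 0 became 1 without CT Ly6C low replicate 2. In the pooled subset fit, Treml4 was not called without a trend or when any single diabetic library was left out, and its log2FC was -0.98 without T1DM mice. Trem1 was called without T2DM mice (-1.71), where Trem3 was at -0.07. Without a trend, the calls of Klrc2, Clu, Cd9 and Apoe in the tests of diabetes were lost. The depth behind low values such as Trem1 and Trem2 in Ly6C low MCs is unknown.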
